A study of Bos taurus with 32 samples.

Results

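N6-methyladenosine (m6A) is a methyl mark on adenosines of RNA, and most mapped sites have a C after the marked adenosine. Described here are 10557 adenosines of coding sequence that instead have a purine there, with a G before the adenosine and an A or G after it. They were taken from a table of 65535 adenosines called in bovine oocytes and preimplantation embryos, by 3 labels of that table. The gene had to be protein-coding, the region had to be coding sequence, and the listed 5-base motif had to read GAA or GAG at its centre. Of these sites only those with a score of at least 0.1 in germinal vesicle (GV) oocytes were used, since the table lists GV sites most fully. A score of at least 0.1 was also what counted as a call at each later stage. The purine sites lay in 3197 genes and made up 27.4% of the 38559 GV-called coding sites with a motif, or 17.5% of all 60417 GV-called sites.

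The methyltransferase complex around METTL3 and METTL14 writes m6A mostly within the consensus DRACH, where D is A, G or U, R is A or G, and H is A, C or U. The base after the methylated adenosine is a C in every DRACH motif, so the purine sites lie outside the consensus. Reader proteins of the YTH family bind m6A and affect how long a transcript lasts and how much it is translated. Oocytes store transcripts for meiosis and the first cleavages, and most of this maternal RNA is degraded before or while the embryo starts to transcribe its own genes. GAA and GAG are also the codons of glutamate, but the table gives no reading frame.

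The assay was m6A-SAC-seq on total RNA, which attaches an allyl group to m6A so that reverse transcriptase makes a mutation at the marked position. Oocytes were taken at 2 stages, immature (GV) and mature in metaphase II (MII). Embryos were taken at 6, with 2, 4, 8 or 16 cells, as morulae and as blastocysts. Oocytes came from slaughterhouse ovaries, and embryos were made from oocytes matured and fertilised in vitro with Holstein semen. The labels give 32 libraries in 16 groups, a treated and an input arm of each stage in 2 replicates, with 200 cells for each stage and replicate. Those 200 cells may come from fewer embryos at later stages, so the amount of RNA cannot be told apart from stage. The table holds 1 score per stage, so no value below has a replicate error or a test between stages. Read depth is unknown, the scale of the score is not stated, and a site may lack a call because its transcript was little sequenced. In such bulk samples fewer transcripts and less modification per transcript cannot be told apart. Shares of sites are given with exact 95% binomial (Clopper-Pearson) intervals, which cover only the counting of sites, and sites that share a transcript are not independent observations.

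The purine sites were compared with 8740 GV-called DRACH coding sites in 2428 of the same genes. A further comparison used the 10110 GV-called coding sites of the same genes that have GA before a T. The remaining 769 genes with purine sites had no DRACH coding site called at GV, and 9238 purine sites lay in genes with both kinds. The labelled oocyte origin was set against marker genes. Of 12 oocyte markers 10 held purine sites, 62 in all. Of 6 cumulus and granulosa markers only STAR held one, called at GV alone, and none was found in 4 trophectoderm and 3 sperm markers. Only GV-called sites could enter, so these counts say nothing about the cells of the embryo samples.

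The sequences that hold purine sites closest together are shown first, since they show what such a site looks like and how densely the calls can lie. Each was read by joining the overlapping deposited motifs, 5′ to 3′ on the transcript strand with T for U, and capitals mark the called adenosines. These are the 6 stretches with 3 purine sites each, followed by the 2 stretches in which a DRACH site stands beside 2 purine sites.
BTF3: agAaagAagAag
C15H11orf16: agAagAagAaa
EIF4A2: agAaagAaagAga
FBL: agAagAgAgt
SQSTM1: agAgAagAag
TENT4A: agAagAgAag
SUGT1: agAaggAcagAaa
LIG1: tgAagAaggAct

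The positions are those of the deposited table, whose genome build the sources used here do not name. In BTF3, a subunit of the complex that binds nascent polypeptides (chr20:8119665-8119676, minus strand), the sites scored 0.199, 0.145 and 0.146 at GV. All 3 were called at MII and 1 in blastocysts, with no call at the stages between. In C15H11orf16 (chr15:43665051-43665061, plus strand) the GV scores were 0.160, 0.103 and 0.237, with 2 sites called at MII and none later. EIF4A2 encodes an RNA helicase of translation initiation, and its stretch (chr1:80469989-80470001, minus strand) scored 0.205, 0.172 and 0.219 at GV. There 1 site was called at MII, 1 with each of 4, 8 and 16 cells, and 1 in blastocysts.

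FBL encodes fibrillarin, a methyltransferase of the nucleolus. Its stretch (chr18:49394849-49394858, minus strand) scored 0.155, 0.295 and 0.205 at GV, with no call at MII and 1 call each in morulae and blastocysts. SQSTM1, an autophagy receptor (chr7:1444280-1444289, minus strand), had GV scores of 0.140, 0.102 and 0.159 and 1 call each at MII and at the 16-cell stage. TENT4A, a poly(A) polymerase (chr20:66466519-66466528, minus strand), had 0.102, 0.246 and 0.108 and 1 call each at MII, 2-cell, 4-cell and 8-cell stages. In SUGT1, a partner of HSP90 (chr12:11134014-11134026, minus strand), the DRACH adenosine in the middle scored 0.717 at GV, against 0.143 and 0.164 at the purine sites beside it. In LIG1, the DNA ligase of replication (chr18:54868634-54868645, minus strand), the purine sites scored 0.115 and 0.114 and the DRACH site 0.150. In each of the 6 stretches with 3 purine sites, at least 1 later stage called some of the sites and not the others.

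At GV the purine sites scored low and in a narrow range. Their median GV score was 0.184 (quartiles 0.144 and 0.247), against 0.249 (quartiles 0.157 and 0.505) at DRACH coding sites and 0.169 at sites with T. The highest purine score was 1.79 and the highest DRACH score 15.8. A score of at least 1 was found at 24 purine sites, 0.227% of them, and at 833 DRACH sites, 9.53% of those. Scores just inside the limit of 0.1 belonged to 561 purine sites below 0.11 (median 0.104), of which 106 were called at MII. Just outside it lay 42 listed sites with GV scores above 0 and below 0.1 (median 0.0776). Exact score values recur within a motif, and 64.4% of the purine sites shared their GV score with another purine site of the same motif. Since each motif may be scored on its own scale, differences of level between motifs are a description only.

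The same gene often held few purine sites. The median was 2 sites per gene, 1213 genes (37.9%) held 1 site, and 180 genes held at least 10. CENPF, a kinetochore protein, had the most with 75. Both strands were about equally represented, with 5480 sites on the plus and 5077 on the minus strand.

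Later stages kept a smaller share of the purine sites than of the DRACH sites in the same genes. At MII 2533 purine sites were called, 24.0% (interval 23.2 to 24.8), against 48.7% of DRACH sites, 35.4% of sites with T and 34.1% of all GV-called sites. At the 2-cell stage 482 were called, 4.57% (4.18 to 4.98), against 10.3% of DRACH sites and 7.39% of all GV-called sites. At the 4-cell stage the number was 1906, or 18.1% (17.3 to 18.8), against 31.2% of DRACH sites and 22.7% of all sites. These shares put purine sites below DRACH sites, T sites and the whole table alike, with intervals that do not overlap those of DRACH sites. For both kinds of site MII was the highest later stage, the 4-cell stage came next, and morulae, given below, were lowest.

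At the 8-cell stage 698 purine sites were called, 6.61% (6.15 to 7.10), against 13.6% of DRACH sites and 9.32% of all GV-called sites. The 16-cell stage had 371, or 3.51% (3.17 to 3.88), against 7.89% of DRACH sites and 6.01% of all sites. Morulae had 263, or 2.49% (2.20 to 2.81), against 4.65% of DRACH sites and 4.42% of all sites. In blastocysts the number was 551, or 5.22% (4.80 to 5.66), which is above the morula share, against 8.43% of DRACH sites and 7.64% of all sites.

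**Figure D1:**
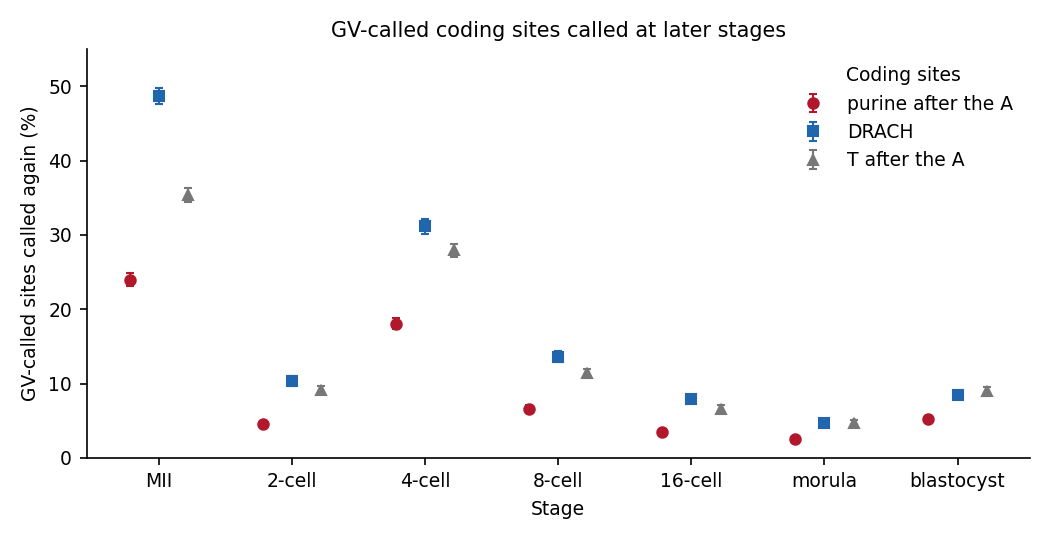
Percentage of GV-called coding sites (y axis) called again at each later stage (x axis), for 10557 sites with a purine after the adenosine, 8740 DRACH sites and 10110 sites with T in the same genes. Bars are exact 95% binomial intervals over sites. Purine sites lie lowest at all 7 stages, at 24.0% in MII oocytes and 5.22% in blastocysts, against 48.7% and 8.43% for DRACH sites.

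Both kinds of site were also compared inside genes. With gene as stratum (Mantel-Haenszel), the ratio of the purine share to the DRACH share was 0.475 at MII, 0.387 with 2 cells and 0.553 with 4 cells. It was 0.443 at the 8-cell stage, 0.364 at the 16-cell stage, 0.338 in morulae and 0.425 in blastocysts. Against sites with T in the same genes the ratio was 0.629 at MII, 0.408 at the 2-cell stage and 0.568 in blastocysts. With DRACH sites weighted to the GV scores of the purine sites, without gene strata, the ratio ranged from 0.461 at the 2-cell stage to 0.627 in blastocysts. The morula and blastocyst ratios depended most on this choice. In morulae the ratio was 0.530 when weighted and 0.536 without either step, and in blastocysts 0.627 and 0.619. The place of morulae as the lowest ratio thus rests on the gene strata. All these ratios were below 1, and they carry no interval because sites of a gene are not independent.

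Counted by gene, 1403 of the 2428 genes with both kinds kept a lower share of purine than of DRACH sites at MII, 359 kept a higher share and 666 an equal one, mostly with neither called. In blastocysts 381 genes had a lower and 107 a higher purine share, while 1940 had an equal one, 1909 of them with neither kind called. At least 1 purine site was called at MII in 1258 of 3197 genes, at the 4-cell stage in 982, in morulae in 182 and in blastocysts in 317.

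Persistence over several stages was rarer too. Of the purine sites 6590 (62.4%) were called at GV only, against 38.3% of DRACH sites and 52% of all GV-called sites. A further 2356 (22.3%) were called at 2 stages, 903 at 3 and 395 at 4. All 8 stages were reached by 14 purine sites (0.133%, interval 0.0725 to 0.222), against 38 DRACH sites (0.435%) and 0.414% of all GV-called sites.

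At MII the share called was higher at higher levels of the GV score at DRACH sites and not at purine sites. Purine sites were cut into 5 equal bins by GV score, and DRACH sites were put in the same bins. From the lowest to the highest bin the share called at MII was 21.4%, 26.4%, 27.3%, 23.0% and 21.8% at purine sites. At DRACH sites it was 31.9%, 42.2%, 45.3%, 51.5% and 56.5%, so it was higher in each higher bin, and at T sites it was 30.0%, 37.0%, 36.1%, 38.9% and 38.5%. The purine sites with the highest GV scores were thus called at MII about as often as those with the lowest. The highest bin has no upper end, and its 4029 DRACH sites reached a score of 15.8, against 1.79 at purine sites. Each bin also pools motifs that may be scored on different scales. Whether the mix of motifs goes with the flat purine shares was not tested. In blastocysts the purine shares were 4.26%, 5.64%, 5.73%, 5.16% and 5.30%, against 6.85%, 8.93%, 8.50%, 8.46% and 8.86% at DRACH sites.

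**Figure D2:**
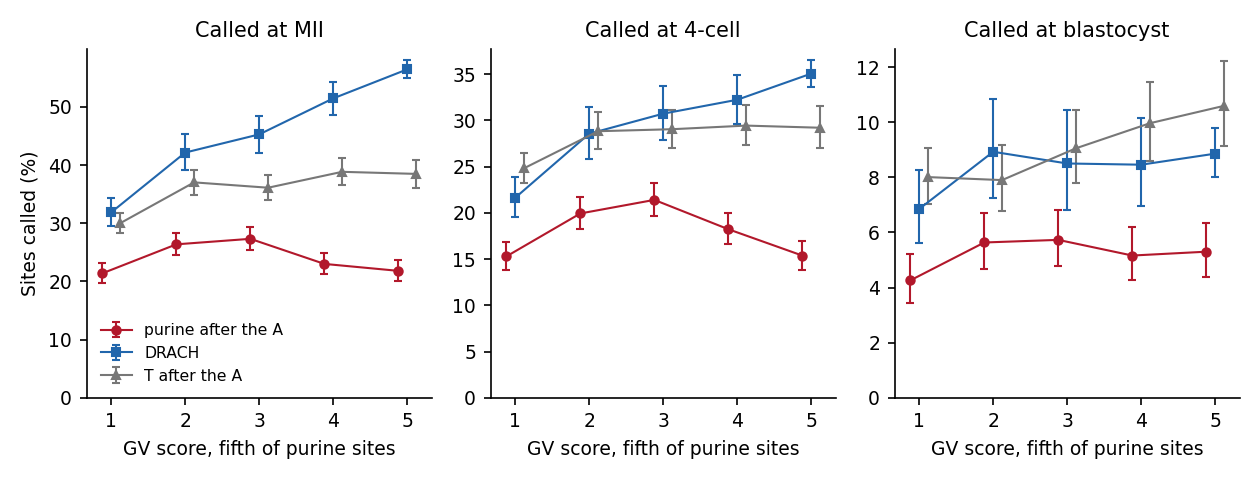
Percentage of sites called at MII, the 4-cell stage and the blastocyst (y axes, each on its own scale) in 5 bins of GV score, cut at the quintiles of the purine sites (x axis, 1 is the lowest). Points are purine, DRACH and T sites of the same genes, with exact 95% binomial intervals. At MII the purine sites stay between 21.4% and 27.3%, while DRACH sites range from 31.9% in the lowest to 56.5% in the highest bin. The highest bin has no upper end and holds DRACH sites of higher scores than any purine site.

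Where a purine site was called again, its score was close to the GV score at MII and at the 4-cell stage. Only sites with a score of at least 0.1 at both stages entered, so falls below that limit were left out. Purine scores lay nearer the limit than DRACH scores, so the medians of both kinds are not on equal terms. With any later score above 0 the purine median was -0.059 at MII and 0.0432 at the 4-cell stage. At the 2533 shared purine sites the log2 ratio of the MII score over the GV score had a median of -0.01, against -0.17 at DRACH sites. At the 2-cell stage it was 0.45, against 0.13 at DRACH sites, and at the 4-cell stage 0.07 against -0.30. At the 8-cell and 16-cell stages it was 0.33 and 0.20, against 0.01 and 0.20 at DRACH sites. In morulae and blastocysts it was 0.15 and 0.11, against 0.32 and 0.28 at DRACH sites. Sites with T had 0.51 at the 2-cell stage and 0.04 at the 4-cell stage, near the purine values. Median scores of the called purine sites stayed between 0.183 at MII and 0.248 at the 2-cell stage.

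GAA and GAG made up nearly equal parts, with 5261 and 5296 sites. GAA sites scored lower at GV, with a median of 0.174 against 0.194 at GAG sites. Shares called were alike at MII, with 24.8% of GAA and 23.1% of GAG sites. They lay further apart in morulae, with 3.02% of GAA (2.58 to 3.52) and 1.96% of GAG sites (1.61 to 2.37), and in blastocysts, with 5.76% and 4.68%. Their ratio turned below 1 at 6 of the 7 later stages when a score of at least 0.2 was required, so the order of GAA and GAG depends on the limit.

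Pooled over the other positions of the motif, the share called at MII differed more with the base before the G than with the A or G after the adenosine. An A before the G was found at 6451 purine sites (61.1%), and 27.9% of these (26.8 to 29.0) were called at MII. The share was 20.2% with a C first (807 sites), 18.7% with a T (2032 sites) and 14.9% with a G (1267 sites, 13.0 to 17.0). Pooled in the same way, it differed less with the last base of the motif, with MII shares between 22.0% for C and 25.2% for A. With the other bases fixed, motifs with an A first lay further apart by last base. The share was 15.9% at agAat and 32.6% at agAag, and 17.5% at agAgg and 30.1% at agAga. A last G thus had the highest share after agAa and the lowest after agAg, which the pooled shares do not show.

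All 32 possible motifs occurred, 24 of them at least 100 times. The most frequent was agAag with 1841 sites (17.4%), a median GV score of 0.155 and 32.6% called at MII. Then came agAga with 1111 sites, a median of 0.1999 and 30.1% called. The highest motif median was 0.254 at cgAga (282 sites), of which 20.9% were called at MII, and the lowest 0.144 at ggAga (279 sites), with 13.3%. Over motifs of at least 100 sites the MII share ranged from 11.9% at tgAat to 32.6% at agAag. Among DRACH motifs of at least 100 sites in the same genes the MII share reached 58.7% at ggAct and 54.0% at ggAcc, but tgAca and tgAcc, at 30.1% and 29.2%, lay within the range of the purine motifs.

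Purine sites had another called site within 3 bases more often than DRACH sites did. Another GV-called site of any kind stood within 3 bases on the same strand at 825 purine sites (7.81%) and at 106 DRACH sites (1.21%). The motifs bear on this count, since purine motifs can overlap each other at 2 or 3 bases and DRACH motifs cannot. No DRACH site had another DRACH site within 3 bases. Within 50 bases both kinds were alike, with 5011 purine sites (47.5%) and 3955 DRACH sites (45.3%). Distances are in genome bases and include introns. Purine sites with a neighbour within 3 bases were called at MII at 32.4% (29.2 to 35.7), against 23.3% (22.4 to 24.1) of those without. Motifs of sites this close overlap, and MII shares differed by motif, with 27.9% for an A first and 14.9% for a G first. Whether the difference goes with the motif was not tested. With a DRACH coding site within 50 bases the MII share differed less, at 25.3% of the purine sites near one and 23.8% of the others. At the 4-cell stage the shares lay further apart, at 23.5% (21.4 to 25.8) near one and 17.2% (16.4 to 18.0) of the others. In blastocysts the sites near one had the lower share, 4.22% against 5.38%.

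The distances between neighbouring purine sites were often multiples of 3. A distance of 3 bases separated 118 neighbouring pairs, against 61 pairs at 2 bases, 39 at 4 and 24 at 5. Pairs 6 bases apart numbered 51, against 20 at 7 and 23 at 8. From 6 to 30 bases, where the motifs of a pair do not overlap, 323 of 655 pairs (49.3%, interval 45.4 to 53.2) were at multiples of 3. Of the 25 distances in that range 9, or 36%, are multiples of 3. DRACH coding sites had 225 of 517 such pairs (43.5%, 39.2 to 47.9) and sites with T 320 of 616 (51.9%), so the spacing was not limited to purine sites.

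**Figure D3:**
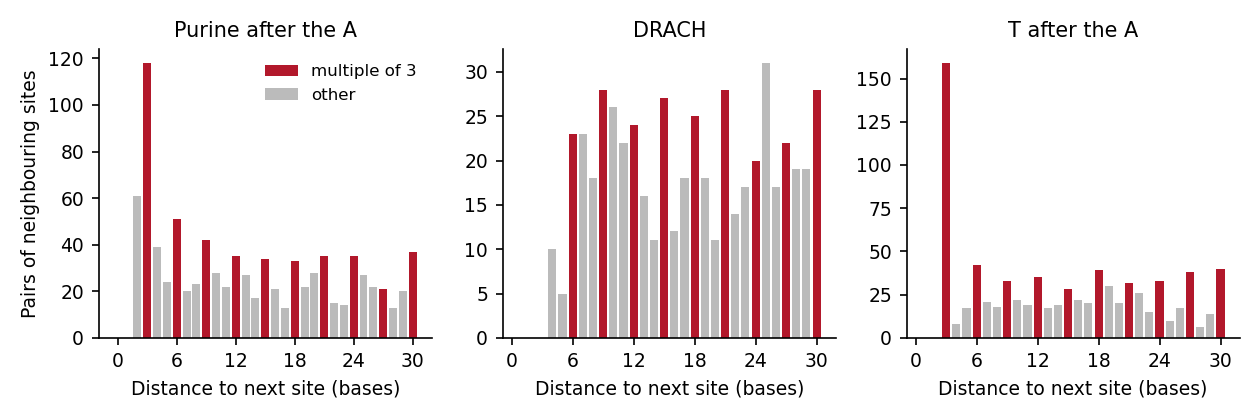
Number of neighbouring pairs (y axes, each on its own scale) at each distance from 2 to 30 bases (x axes) for purine, DRACH and T coding sites called at GV, with multiples of 3 in red. Purine pairs peak at 3 bases with 118 pairs, and 49.3% of purine pairs from 6 to 30 bases are at multiples of 3, against 43.5% of DRACH pairs.

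The 10 genes with most purine sites included genes of the cytoskeleton, the spindle and the nucleus. CENPF had 75 purine sites at GV and 20 at MII, then 2, 11 and 1 in embryos of 2, 4 and 8 cells, and none later. Its 27 DRACH coding sites numbered 16 at MII and 1 in blastocysts. The spectrin gene SPTAN1 had 41 purine sites at GV and 16 at both MII and the 4-cell stage, and the other spectrin gene SPTBN1 28, with 8 and 4. CCNB3, a cyclin of meiosis, had 34 at GV, 11 at MII and 13 at the 4-cell stage. None of CENPF, SPTAN1, SPTBN1 and CCNB3 kept a purine site after the 8-cell stage.

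ANKRD17 had 29 purine sites, with 9 at MII and then 5, 11 and 5 in embryos of 2, 4 and 8 cells. The ubiquitin ligase gene TRIP12 also had 29, with 5 at MII, 7 at the 4-cell stage and 2 in blastocysts. SMARCA5, an ATPase that remodels nucleosomes, had 26 at GV, 6 at MII and 1 in blastocysts. KIDINS220 (25 at GV), IQGAP1, a scaffold of the actin cortex (24), and LEO1, of the PAF complex of transcription elongation (24), had 6, 8 and 10 at MII and none from the 8-cell stage on. TRIP12 and SMARCA5 were the only genes among these 10 with a purine site called in blastocysts.

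Genes of chaperones and of cell junctions were among those with most purine sites called in blastocysts. HSPA8, a chaperone of the cytosol, had 14 at GV, then 6, 2, 6, 8, 10 and 7 from MII to the morula, and 12 in blastocysts. CDH1, which encodes E-cadherin, had 10 at GV, 4 at MII, none in morulae and 7 in blastocysts, and the membrane linker gene EZR had 9, 5, 3 and 7 at these stages. HSP90AA1 kept 8 of 14 in blastocysts, HSP90B1 8 of 20, HSP90AB1 6 of 18 and HNRNPU, a nuclear scaffold protein that binds RNA, 6 of 20. In HSPA8, CDH1, EZR, HSP90AA1 and HSP90AB1 the blastocyst had more called purine sites than any other stage after GV. HSPA8 and the HSP90 genes may have similar copies in the genome, as may EIF4A1, the tubulins, the histones and the ribosomal proteins. Reads could be shared among such copies, so the values of these genes are uncertain. How alike the copies are, and whether reads were shared, was not tested.

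**Figure D4:**
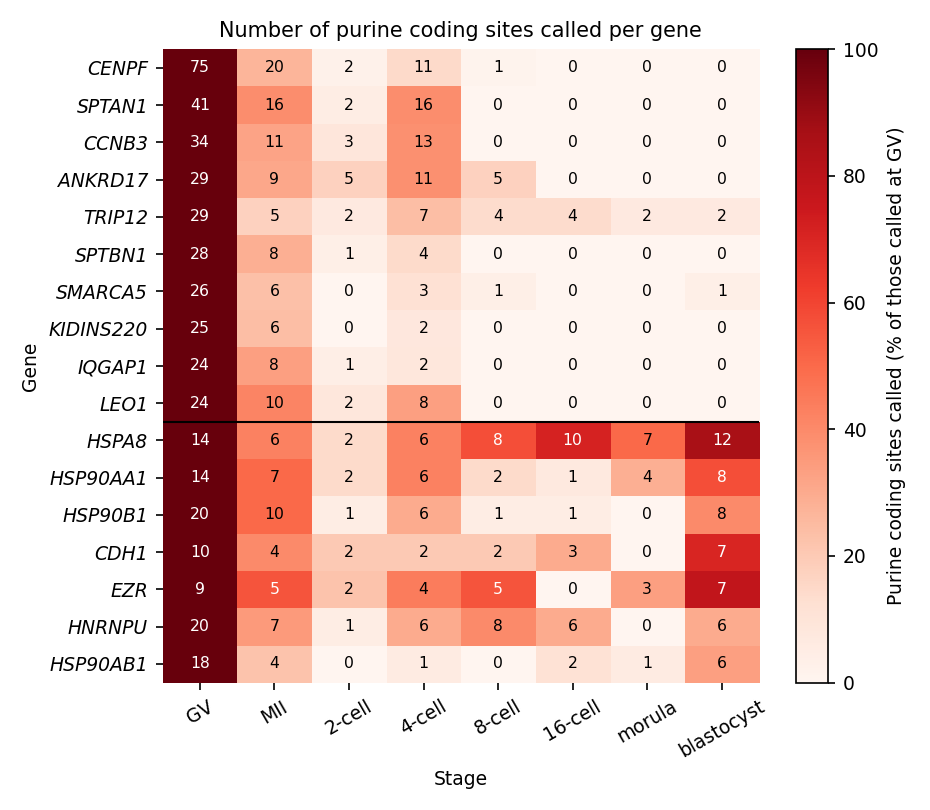
Number of purine coding sites called at each stage (printed in the cells, stages on the x axis) in the 10 genes with most GV sites (above the line) and 7 of those with most in blastocysts (below it). Colour gives the percentage of the GV sites of the gene. CENPF runs through 75, 20, 2, 11, 1, 0, 0 and 0 sites, while HSPA8 has 12 of its 14 sites called in blastocysts.

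Of the 14 sites of HSPA8, 3 chosen after their values were seen are given as examples. The site at chr15:33679353 (motif agAgt) scored 0.226 at GV and 0.192 at MII, had no score at the 2-cell stage, and then scored 0.209, 0.202, 0.163, 0.184 and 0.189 from the 4-cell stage to the blastocyst. The agAaa site at chr15:33681165 scored 0.215, 0.188, 0, 0.296, 0.259, 0.275, 0.173 and 0.209 over the 8 stages. The agAag site at chr15:33681955 scored 0.123 at GV and 0.104 in blastocysts, with 0.150 at the 2-cell stage. At these 3 sites every called score lay between 0.104 and 0.296, with the lower end set by the limit of 0.1, and 2 of the 3 had 0 at the 2-cell stage.

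In CDH1 the agAga site at chr18:36107839 scored 0.157 at GV, 0.199 at MII and 0.689 at the 2-cell stage, then 0.309, 0.297 and 0.260, with 0 in morulae and 0.179 in blastocysts. Its neighbour at chr18:36107841 (agAgt), which is 2 bases on, scored 0.196 at GV and 0.146 in blastocysts and 0 at all stages between. The tgAga site at chr18:36101154 scored 0.830 at GV, 0.796 at MII, 1.39 at the 2-cell stage and 0.496 in blastocysts, with 0 at the other stages.

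Among 97 genes with at least 8 purine and 8 DRACH coding sites, 88 had a lower and 9 a higher share of purine sites called at MII. The median difference was -27.5 percentage points (quartiles -39.7 and -13.7). The lowest value was that of the tubulin gene TUBA1C, with 1 of 9 purine sites against 8 of 8 DRACH sites. KMT2C, a histone methyltransferase, kept 3 of 16 purine and 15 of 18 DRACH sites at MII, and MRTFA, a transcriptional coactivator of actin genes, 1 of 9 and 9 of 12. CRACD kept 4 of 15 purine and 7 of 8 DRACH sites, and FBXO34 3 of 10 and 7 of 8. In these 5 genes most DRACH sites were called again while most purine sites of the same transcripts were not.

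In 9 genes the order was the opposite. MCM4, a subunit of the replicative helicase, kept 6 of 9 purine sites and 3 of 8 DRACH sites at MII. NUP155, a nuclear pore protein, kept 3 of 10 and 1 of 8, the deubiquitinase gene USP19 2 of 8 and 1 of 8, the phosphorylase kinase gene PHKA2 9 of 17 and 4 of 9, and MPHOSPH9 8 of 18 and 4 of 11. These 5 genes had between 8 and 18 purine sites each.

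**Figure D5:**
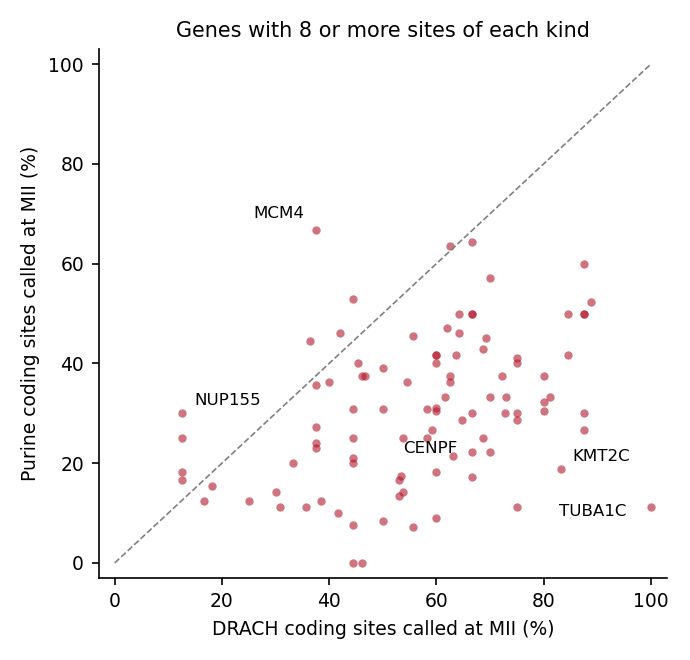
Each point is 1 of 97 genes with at least 8 purine and 8 DRACH coding sites called at GV, with the percentage called at MII for purine sites (y axis) and DRACH sites (x axis). The dashed line marks equal shares. Below the line lie 88 genes, TUBA1C furthest with 11.1% against 100%, and 9 lie above it, MCM4 furthest with 66.7% against 37.5%.

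The 14 purine sites called at all 8 stages lay in 9 genes, and 7 of them in EIF4A1 (4 sites) and the linker histone gene H1-4 (3 sites). GAA was at the centre of 11 of the 14, and 11 had an A first. The highest GV score among them was in PRKAR1A, a regulatory subunit of protein kinase A (chr19:61711061, minus strand, agAaa). It scored 0.421 at GV, 0.392 at MII and 0.728, 0.757, 0.588, 0.801, 0.805 and 0.532 from the 2-cell stage to the blastocyst. The EIF4A1 site at chr19:27309107 (plus strand, agAag) scored 0.230, 0.235, 0.189, 0.265, 0.267, 0.226, 0.282 and 0.260 over the 8 stages. Over the 14 sites the highest score of a site was in the median 1.78 times its lowest, and at least 1.33 times.

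In H1-4 the site at chr23:31796103 (minus strand, agAaa) scored 0.205 at GV and 0.191 at MII, 0.196, 0.255, 0.211 and 0.252 in cleaving embryos of 2 to 16 cells, 0.201 in morulae and 0.232 in blastocysts. The site of RPL19 (chr19:39697349, plus strand, tgAag) ranged from 0.156 in morulae to 0.295 in blastocysts. Single sites also lay in H1-1, in PCBP1, an RNA-binding protein, and in 2 genes that the table gives without a symbol. Of the 7 purine sites of H1-1 all were called at MII and 1 in blastocysts.

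The 5 highest GV scores are given as single sites. None of the 5 was called in morulae or blastocysts, where 2.49% and 5.22% of all purine sites were called. TRIO, a guanine nucleotide exchange factor (chr20:58663934, minus strand, tgAgc), scored 1.79 at GV, 0.781 at MII and 0 afterwards. CNTRL, a centriole protein (chr8:110582965, plus strand, tgAga), scored 1.62 at GV and 0.984 at the 4-cell stage only. BIRC6, an inhibitor of apoptosis (chr11:15032471, plus strand, tgAga), scored 1.59 at GV and 2.32 at MII. ADAR, an adenosine deaminase that edits RNA (chr3:15976727, plus strand, tgAgt), scored 1.50 at GV, 0.879 at MII, 1.69 with 4 cells and 1.39 with 8 cells. RANBP9, a scaffold of a ubiquitin ligase complex (chr23:42996019, plus strand, cgAga), lasted longest, with 1.74, 1.54, 1.34, 1.64, 1.66 and 2.05 from GV to the 16-cell stage and 0 in morulae and blastocysts.

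Groups of genes were described by the number of their purine sites called, to be read beside the shares over all purine sites. Those were 24.0% at MII, 4.57%, 18.1%, 6.61% and 3.51% with 2, 4, 8 and 16 cells, 2.49% in morulae and 5.22% in blastocysts. The sites of a group lie in few genes and are not independent. The intervals of the groups are therefore too narrow and are no test of a group against these shares. Chaperone genes (19 of 21 listed genes with purine sites) had 143 sites, of which 45 (31.5%) were called at MII and 49 (34.3%, 26.5 to 42.7) in blastocysts, against 24.0% and 5.22% of all purine sites. DRACH sites of the same chaperone genes were at 61.8% and 38.2%. In these genes the purine and DRACH shares thus lay far apart at MII and near each other in blastocysts. The list mixes chaperones of the cytosol, the endoplasmic reticulum and mitochondria. HSP90B1, HSP90AB1, HSP90AA1 and HSPA8 held 20, 18, 14 and 14 of the 143 sites, and 8, 6, 8 and 12 of the 49 called in blastocysts. Most blastocyst calls of the group thus lay in these genes, whose reads might be shared among similar copies, so its blastocyst share is uncertain. CCT8, a subunit of the chaperonin, kept 1 of 11 at MII and none in blastocysts.

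Translation factor genes (13 of 21) had 76 purine sites, with 19 (25%) called at MII, 23 (30.3%) at the 8-cell stage and 20 (26.3%, 16.9 to 37.7) in blastocysts. Over all purine sites the shares were 24.0%, 6.61% and 5.22%, so the group was near them at MII and above them at both later stages. DRACH sites of these genes were at 54.8% in blastocysts. EIF4A1 kept 5 of 6 purine sites in blastocysts and EEF2, the translocation factor of elongation, 3 of 7, while EIF5B kept none of 14. Splicing genes (8 of 15) had 59 purine sites, with 12 (20.3%) called at MII and 9 (15.3%) in blastocysts, against 24.0% and 5.22% of all purine sites. The interval at MII (10.98 to 32.8) holds the share over all purine sites, and the interval in blastocysts (7.22 to 27.0) lies above it. Of the DRACH sites of these genes 53.8% were called in blastocysts. HNRNPU gave 6 of these 9, PRPF8 kept 2 of 13 and SRRM2 1 of 9.

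Genes of actin, spectrin and junctions (18 of 20) had 220 purine sites, with 85 (38.6%, 32.2 to 45.4) called at MII and 32 (14.5%) in blastocysts, against 24.0% and 5.22% of all purine sites. Of those 32, CDH1 and EZR held 7 each and the catenin genes CTNNB1, CTNNA1 and CTNND1 5, 4 and 3. SVIL and PLEKHG1, with 23 and 21 purine sites, kept none, like the spectrins.

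Spindle and kinetochore genes (11 of 20) had 140 purine sites, 75 of them in CENPF, with 32 (22.9%) called at MII and 1 (0.714%, 0.0181 to 3.92), in TPX2, in blastocysts. At MII this is near the 24.0% of all purine sites, and in blastocysts below their 5.22%. Chromatin genes (12 of 21) also had 140, with 29 (20.7%) called at MII and 3 (2.14%) in blastocysts. Both intervals (14.3 to 28.4 and 0.444 to 6.13) hold the shares over all purine sites, 24.0% and 5.22%. Of the DRACH sites of these genes 52.4% and 14.3% were called. SIN3A, a corepressor scaffold, kept 4 of 24 at MII, NCOR1 8 of 22 and the DNA methyltransferase gene DNMT1 1 of 13. All 3 were without a purine call in blastocysts.

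Of the 62 purine sites of oocyte markers 23 (37.1%, 25.2 to 50.3) were called at MII, against 24.0% of all purine sites. In embryos of 2, 4, 8 and 16 cells 13 (21.0%), 21 (33.9%), 12 (19.4%) and 3 (4.84%) were called, against 4.57%, 18.1%, 6.61% and 3.51% of all purine sites. None was called in morulae and blastocysts, and that interval, up to 5.78%, holds the shares over all purine sites, 2.49% and 5.22%. Their DRACH sites were at 79.4%, 44.4%, 65.1%, 34.9% and 11.1% at the stages from MII to 16-cell and at 4.76% in morulae. NLRP14, a maternal-effect gene, had 24 of the 62 purine sites and kept 6 at MII and none at the 8-cell stage. BTG4, an adaptor of maternal mRNA decay, kept 4 of 6 at the 8-cell stage, and ZP2, of the egg coat, 2 of 6.

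The genes of m6A writers, readers and erasers (8 of 18) had 25 purine sites, 4 called at MII (16%), 9 at the 4-cell stage (36%, 18.0 to 57.5), 1 at the 8-cell stage and none later. The intervals hold the shares over all purine sites, 24.0% at MII, 18.1% at the 4-cell stage and, for none of 25 (up to 13.7%), those after the 8-cell stage. The demethylase gene ALKBH5 had 5, of which 3 were called in 2-cell and 3 in 4-cell embryos. IGF2BP3, an m6A reader, had 5 and kept 4 at the 4-cell stage. RBM15B, a subunit of the writer complex, had 4 purine sites and none was called after GV, against 8 of its 10 DRACH sites at MII.

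GV and MII can be compared in both directions only within a window, the minus strand between chromosomes 10 and 19, for which the row order shows that no call of either stage is missing. Purine coding sites there numbered 2034 at GV, 1381 at MII and 437 at both. The shared sites were 21.5% of the GV sites (19.7 to 23.3) and 31.6% of the MII sites. For DRACH coding sites, here of all genes, the shares were 44.2% and 56.0%, for sites with T 30.4% and 42.5%, and for all sites 33.5% and 46.9%. The number of MII calls per GV call was 0.679 for purine sites, 0.789 for DRACH sites, 0.714 for sites with T and 0.715 for all sites. The lower share of purine sites called at both stages was thus seen from either stage.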

How the data were processed

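For each adenosine the authors deposited a score per stage with its chromosome, position, strand, gene, region and 5-base motif. The scale of this score is not stated, and its values are not whole numbers although the table is named for counts. Per the submitters' processing notes, Trimmomatic 0.39 and STAR 2.5.3a were used. Site caller, genome build, annotation and the way arms and replicates were merged: not given in the sources used here. Its 65536 lines, header included, are as many as an xls sheet can hold, and GV-called sites are listed in full. Sites called first after MII were not analysed here. Depth per sample is unknown, so its precision cannot be given.

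Each stage column was taken as a pooled value, so the count tests and replicate checks used for RNA sequencing were not possible. A call was a score of at least 0.1. Shares have exact Clopper-Pearson intervals at 95%. Ratios of shares used gene as stratum (Mantel-Haenszel) or DRACH sites weighted over 5 bins of GV score. The sites and gene lists were chosen with earlier results of these data known. Named genes were the 10 with most purine sites, the 8 with most called in blastocysts, and the 5 highest and 5 lowest differences from DRACH sites at MII. Further named were the sites called at all 8 stages, the 5 highest GV scores and the list genes with most sites, and other examples were chosen after their values were seen. Some genes that these rules name are left out. Alternatives changed the score limit, the comparison sites, the strata and the sites included. The calculations were tested on simulated data with 6 of 6 checks passed. Software was Python 3.11.15 with pandas 2.3.3, scipy 1.17.1, numpy 2.4.6 and, for plots, matplotlib 3.10.9.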

Additional observations from a re-analysis of the deposited data

Results flagged for a closer look

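On the minus strand of chromosomes 10 to 19, 944 purine coding sites were called at MII and not at GV, and so lie outside the comparisons of GV-called sites. They lay in 445 genes, 821 of them in genes that also hold a GV-called purine site, and 911 had a GV score of 0. Their median MII score was 0.189, with 511 at GAA and 433 at GAG. At the 4-cell stage 91 of them (9.64%) were called, against 161 of the 437 purine sites called at both GV and MII (36.8%). In blastocysts 24 (2.54%) were called, where 5.22% of the GV-called purine sites of all chromosomes were. The 944 sites were part of 1381 purine sites called at MII there. Over all sites of the same window 4389 of 8262 MII calls had no GV call. It was 815 of 1851 at DRACH coding sites and 966 of 1681 at T sites. The share of MII calls also called at GV was thus lowest at purine sites, 31.6% against 46.9% over all sites. There is no control sample in the table, and whether these numbers go with sequencing depth was not tested.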

How the results depend on the processing

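No paired analysis was possible because the table holds 1 pooled score per stage and no replicate columns, so leaving out a replicate was not run either. The ratio of the purine to the DRACH share stayed below 1 under all 7 alternatives at all 7 later stages. It moved by little without the 825 purine sites that have a GV-called neighbour within 3 bases and without the 10 genes with most purine sites. The shares called moved as little without these and without genes of large-subunit ribosomal proteins.

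In stage order, MII first and blastocysts last, a limit of 0.2 at both stages (4410 purine sites) gave shares called of 15.7%, 3.29%, 12.9%, 5.397%, 2.65%, 1.75% and 4.08%, and ratios to DRACH sites of 0.387, 0.432, 0.587, 0.548, 0.315, 0.264 and 0.378. The ratio weighted to the GV scores of the purine sites was 0.528, 0.461, 0.609, 0.514, 0.484, 0.530 and 0.627, and without gene strata 0.493, 0.442, 0.579, 0.485, 0.445, 0.536 and 0.619. With any later score above 0 as a call the shares were 26.2% at MII and 19.05% at the 4-cell stage, the ratios 0.453 and 0.5001, and the median log2 score ratios -0.059 and 0.0432. Against DRACH sites of any region the ratio was 0.583 with 4 cells, 0.482 with 8 cells, 0.284 in morulae and 0.380 in blastocysts.

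Over all purine sites, called at the stage or not, the median score was 0 at each later stage. The ratio of the GAA to the GAG share, with a limit of 0.2, was 0.979, 0.855, 0.906, 0.867, 0.773, 1.07 and 0.959 at the same stages, against 1.07, 1.06, 1.02, 1.01, 1.09, 1.54 and 1.23 with 0.1, so it turned at 6 of 7 stages. A higher limit leaves fewer sites of both kinds; the cause of the other shifts was not tested. Unknown depth, the missing replicates and the unstated score scale limit all values.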

Other observations

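Single genes departed from the common order of the stages, and the following were chosen after their values were seen. AURKA, a kinase of the meiotic and mitotic spindle on chromosome 13, had 7 purine sites at GV. Of these 4 were called at MII, 5 at each of the 2-cell, 4-cell and 8-cell stages, 3 at the 16-cell stage, 2 in morulae and none in blastocysts. Its agAga site at chr13:59567265 (plus strand) scored 0.150 at GV, 0.162 at MII, 0.151, 0.152, 0.184 and 0.201 from the 2-cell to the 16-cell stage, 0.232 in morulae and 0 in blastocysts. The agAgt site at chr13:59567267, which lies 2 bases on, scored 0.135 at GV, 0 at MII, and 0.162, 0.132 and 0.130 at the 2-cell, 4-cell and 8-cell stages. DPPA3, a maternal factor that binds chromatin, kept 2 of its 4 purine sites at each stage from MII to 8-cell and 1 at the 16-cell stage. H1-4 kept 4 or 5 of its 5 purine sites at every later stage.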
